A study of Mus musculus with 4 samples.

Results

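Long non-coding RNAs of the mouse amygdala that are known for work in the nucleus were measured in ribosome-bound and in total RNA. The group held 9 genes, chosen by symbol: Meg3, Rian, Mirg, Miat, Malat1, Neat1, Rmst, Kcnq1ot1 and Peg13. All 9 were listed in each of the 4 libraries, among 22753 genes kept in all, and 7 of them were expressed high enough to be tested. The animals were NpyCre/+;TRAPlox/lox mice, in which, as background to the method, Cre recombinase made from the Npy locus switches on a tagged ribosomal protein. Translating ribosome affinity purification (TRAP) then pulls down tagged ribosomes with their RNA. There were 2 libraries of this immunoprecipitated RNA (IP) and 2 of the input RNA, the amygdala RNA from which the IP was drawn. Every library pooled RNA of 3 mice and was made from 200 ng, and both groups came from mice of the same genotype. The sources used here do not give age, sex, diet or stress treatment.

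Most messenger RNAs leave the nucleus and are loaded with ribosomes, whereas the RNAs studied here act largely where they are made. Malat1 sits in nuclear speckles, Neat1 builds paraspeckles, and Miat, also called Gomafu, forms nuclear foci of its own in neurons. Meg3, Rian and Mirg are made from the maternal copy of the imprinted Dlk1-Dio3 region, and Peg13 and Kcnq1ot1 from the paternal copy of theirs. Comparing IP with input therefore asks how much of each RNA was recovered with the tagged ribosomes. Input also holds RNA of all cells without the tag, so RNA off ribosomes and RNA in untagged cells cannot be told apart here. In these bulk samples, fewer cells of a type and less RNA per cell cannot be told apart either. No nuclear fraction and no mock precipitation was analysed here, so the word nuclear rests on what is known of these genes.

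The precipitation was checked with Npy itself and with cell type markers. Npy had an FPKM (fragments per kilobase of transcript, scaled to the reads mapped: a level per length) of 105.4 and 99.2 in the input libraries and 1240 and 1167 in the IP libraries. Gad1, which makes the transmitter GABA, stood at 127.8 and 127.6 in input and 589.2 and 633.3 in IP. All 10 GABAergic markers were higher in IP, with a median log2 change of 2.23, and 9 of the 10 after rescaling each library to the same sum. Markers of other cells were lower: 8 of 10 for glutamatergic neurons (median -1.04), 9 of 10 for astrocytes (-1.71), 12 of 12 for the oligodendrocyte lineage (-2.02), 10 of 10 for microglia (-1.94) and 8 of 8 tested for endothelial and mural cells (-1.13). The astrocyte marker sum was 530 and 577 in input and 159.0 and 199.5 in IP, and that of the oligodendrocyte lineage 559.0 and 526.4 against 115.5 and 131.3. For microglia the sums were 62.2 and 56.4 against 9.80 and 9.85, and for endothelial and mural cells 36.4 and 36.7 against 5.39 and 6.89. Glutamatergic markers summed to 765.6 and 793.9 in input and 437.4 and 332.6 in IP. Slc7a10 of astrocytes was the only marker listed at 0 in both IP libraries. The part of these untagged cells in the members' differences was not tested. Read depth is not given by the deposited values. They summed to 334759 and 335119 FPKM per input library and to 423985 and 419349 per IP library.

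Of the 7 members tested, 6 were lower in IP and Peg13 was higher. Across all 12418 genes tested, 33.9% were lower in IP and 37% higher at an adjusted p of 0.05, and the median log2 change was 0.03. The median of the 7 members was -2.35. A call alone therefore sets the members little apart, and their sizes say more: 0.0161% of tested genes had a change as low as that of Meg3 or lower, 0.153% for Miat, 0.290% for Malat1, 0.459% for Neat1, 1.19% for Rian and 2.00% for Mirg. A change as high as that of Peg13 was reached by 4.48%. Both IP libraries lay below both input libraries for each of the 6, against 41.4% of tested genes, and above them for Peg13, against 45%. The same held in Rmst and Kcnq1ot1, which were too low to test. The 9 RNAs together took 0.211% and 0.193% of the FPKM sum of the input libraries and 0.056% and 0.061% of that of the IP libraries. Without Peg13 the shares were 0.185% and 0.166% in input and 0.0160% and 0.0204% in IP.

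**Figure D1:**
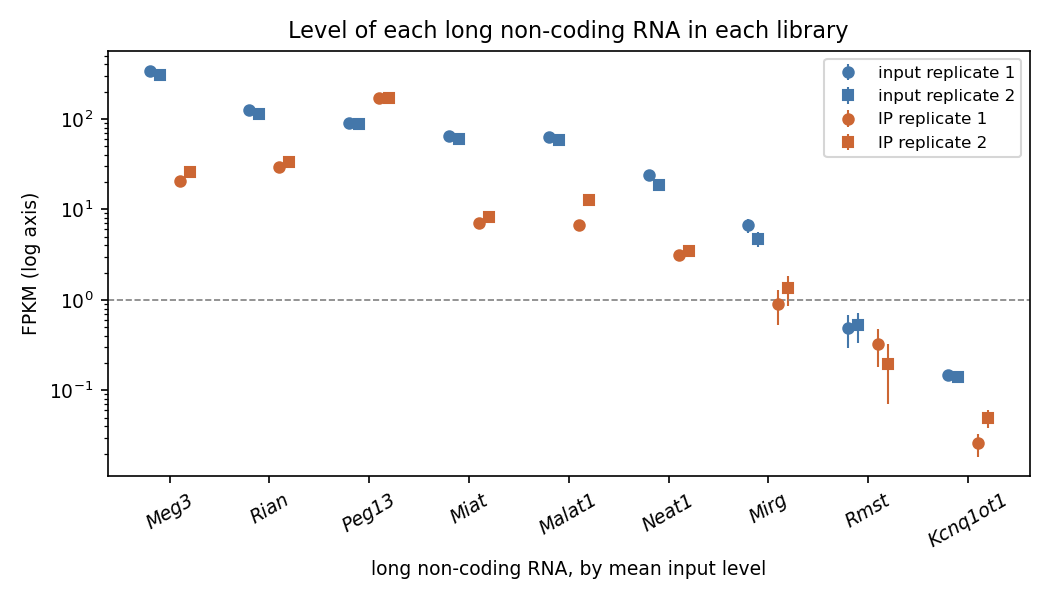
FPKM of each of the 9 long non-coding RNAs on a log axis, with 1 point for each library (input in blue, IP in orange) and vertical lines for the deposited confidence limits. The dashed line is the FPKM of 1 used as filter. In 8 RNAs both IP points lie below both input points, and in Peg13 both lie above.

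The 3 RNAs of the Dlk1-Dio3 region were all lower in IP, though by different amounts. Meg3, which lies at chr12:109540996-109571729 on the plus strand (mm10) and gives rise to several spliced transcripts, was the most abundant member in input. Its FPKM was 335.1 and 304.0 in the input libraries and 20.4 and 25.9 in the IP libraries. The lowest input value was thus far above the highest IP value. The means were 319.5 ± 22.0 and 23.2 ± 3.87 (SD, n = 2 each), 13.8-fold lower in IP, with 16.4-fold and 11.7-fold in the pairs of the same number. On the log2(FPKM + 1) scale of the test the change was -3.74 with a standard error (SE) of 0.11 and an adjusted p of 1.24e-05. Of all genes tested, 2 had a change this low, Meg3 included. In input Meg3 ranked 110 by level among all genes, in IP 3562.

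Rian, which lies downstream of Meg3 at chr12:109603945-109661711 on the plus strand, hosts many small nucleolar RNAs in its introns. Its input values were 124.3 and 111.7 FPKM, and its IP values 29.4 and 33.7. The groups stood apart, but less than for Meg3: input was 3.74-fold above IP (4.23 and 3.31 in the pairs), and the log2 change was -1.87 (SE 0.08, adjusted p = 2.46e-05). As a result the order of the pair changed. Meg3 was above Rian in both input libraries and below it in both IP libraries.

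Mirg, at chr12:109734981-109749457 on the plus strand, is the host of a large microRNA cluster and was the lowest of the 3. Input held it at 6.64 and 4.71 FPKM, IP at 0.898 and 1.35. Both IP values lay near the filter of 1. The ratio of the means was 5.06, but it differed between the pairs, at 7.40 and 3.50. The log2 change was -1.65 (SE 0.17, adjusted p = 0.000282), which understates the ratio because of the added 1.

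Of the protein-coding genes of the same imprinted region, 3 were lower in IP. Rtl1 is a retrotransposon-derived gene read from the opposite strand between Meg3 and Rian. Its FPKM was 1.51 and 1.19 in input and 0.285 and 0.486 in IP, a log2 change of -0.76 (adjusted p = 0.00183). Dio3, which makes the enzyme that inactivates thyroid hormone, changed by -1.23 (adjusted p = 0.000239). Both are low, so the added 1 shrinks their changes: input was 3.50-fold above IP for Rtl1 and 4.92-fold for Dio3, beside 3.74-fold for Rian. Dlk1, a Notch-like membrane protein, changed by -0.50 (adjusted p = 0.0114). It no longer passed when input replicate 2 was left out (-0.40, adjusted p = 0.101), nor after quantile normalization (-0.20, adjusted p = 0.192). Begain, at the far end, had a change of -0.05 (adjusted p = 0.526), which was 0.0082 with median-of-ratios scaling and -0.39 (adjusted p = 0.00192) after rescaling to equal sums. The differences between these genes were not tested. The sources used here do not say whether strand was kept, and without it reads of overlapping or antisense RNAs cannot be told apart.

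**Figure D2:**
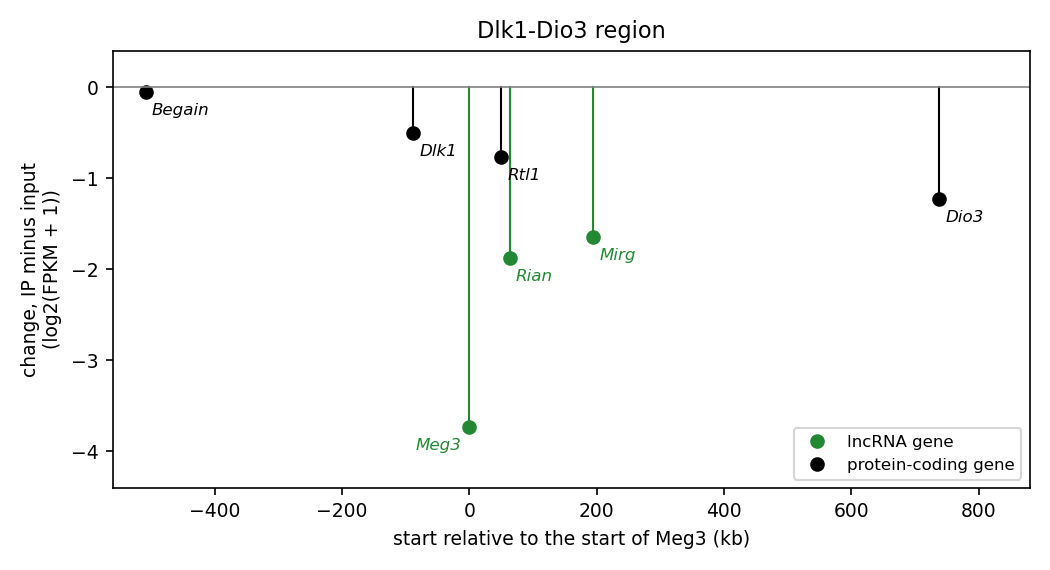
Log2 change, IP minus input, of the tested genes of the Dlk1-Dio3 region against the distance of each gene's start from the start of Meg3 in kb, with long non-coding RNAs in green and protein-coding genes in black. Meg3 (-3.74), Rian (-1.87) and Mirg (-1.65) lie lowest on this scale, which understates the changes of the low genes Rtl1, Dio3 and Mirg, and Begain, whose sign depends on the scaling, lies near 0.

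The files also listed microRNA and small nucleolar RNA entries inside the members, 23 in all: 2 in Meg3, 10 in Rian, 10 in Mirg and 1 in Rmst. All but 1 were at 0 in every library. The exception, Mir1188 inside Rian, was listed at 175.8 FPKM in input replicate 2 only. The libraries therefore gave no level for the small RNAs that these host genes carry, and the values above describe the host transcripts.

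Miat lies at chr5:112213228-112228948 on the minus strand. Its known partner is the splicing factor SF1, which reads the branch point letters TACTAAC (written as DNA), and Miat carries that motif in repeats. The 8760-base RefSeq transcript holds 6 copies on the RNA strand, in blocks of 3. They are printed because they are what makes this RNA unusual among the members, with the motif in capitals (GRCm38.p6, the same assembly as mm10, minus strand). The first block is at chr5:112217308-112217457 and the second at chr5:112216753-112216812.
Miat first block: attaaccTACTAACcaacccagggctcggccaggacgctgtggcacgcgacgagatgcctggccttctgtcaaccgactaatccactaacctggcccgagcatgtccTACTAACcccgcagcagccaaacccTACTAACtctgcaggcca
Miat second block: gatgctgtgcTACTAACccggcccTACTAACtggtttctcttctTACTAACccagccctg
Of 3236 RefSeq genes whose longest curated transcript had 5000 to 15000 bases, tested here or not, 14.93% held the motif at all. Only 1 of them (0.031%), which is Miat itself, held as many copies. Among the other members Kcnq1ot1 had 4 copies in 83437 bases and the long Neat1 transcript 1 in 20771 bases, while the rest had none.

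The input libraries had Miat at 64.1 and 60.3 FPKM, the IP libraries at 7.12 and 8.30. The groups were far apart and each pair of libraries was close. IP was 8.06-fold lower (8.99 and 7.26 in the pairs), and the log2 change of -2.86 (SE 0.08, adjusted p = 1.1e-05) was the largest fall of any member after Meg3. The messenger RNA of the partner Sf1 stood at 42.9 and 45.1 in input and 44.8 and 43.8 in IP, with overlapping groups; after rescaling to equal sums it was lower in IP (-0.33, adjusted p = 0.00186). Qk, whose protein reads a like motif and which is high in glia, fell from 36.1 and 33.5 FPKM to 13.7 and 14.4, a log2 change of -1.25. Both were picked after their values were seen.

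Malat1 and Neat1 are neighbours on chromosome 19, and both are unspliced. Malat1 lies at chr19:5795690-5802671 on the minus strand. The mature RNA has no usual poly(A) tail and is protected by a triple helix, in which T-rich stretches (U in the RNA) fold around an A-rich tract at the cleaved end. This stretch, at chr19:5795958-5796082 (GRCm38.p6, minus strand), is printed because that end bears on how the RNA is captured, with runs of 4 or more T and of 8 or more A in capitals.
Malat1 tract: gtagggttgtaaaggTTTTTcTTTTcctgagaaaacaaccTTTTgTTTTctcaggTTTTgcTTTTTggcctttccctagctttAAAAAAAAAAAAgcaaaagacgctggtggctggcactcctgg
Poly(A) selection of the libraries is neither stated nor denied in the sources used here. The transfer RNA-like piece that is cut off as the end is made follows the A-rich part.

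Malat1 had an FPKM of 63.3 and 58.0 in input and 6.63 and 12.7 in IP. Input replicates were close, but IP replicate 2 was well above IP replicate 1, and the fold of input over IP was 9.56 in 1 pair and 4.59 in the other. The means of 60.7 ± 3.76 and 9.64 ± 4.26 (SD, n = 2) differed 6.29-fold. The log2 change was -2.59 (SE 0.25, adjusted p = 0.000215), with the largest SE of any member tested. In input Malat1 and Miat had overlapping values, and they overlapped again in IP.

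Neat1 is listed at chr19:5842302-5845478 on the minus strand, which is the span of its short transcript of 3185 bases. The transcript of 20771 bases, the one that builds paraspeckles, runs on beyond that span and was not measured apart. The FPKM of Neat1 was 23.6 and 18.4 in input and 3.16 and 3.42 in IP. IP was 6.39-fold lower (7.47 and 5.39 in the pairs), and the log2 change was -2.35 (SE 0.12, adjusted p = 3.2e-05). Frmd8, a gene beside the pair, fell (-1.11).

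Peg13 was the exception. It is a single-exon RNA at chr15:72805600-72810324 on the minus strand, made from the paternal copy in brain, and it lies inside intron 16 of the 22-exon transcripts of Trappc9, a gene of vesicle traffic, without touching an exon. Its FPKM was 89.2 and 88.6 in input and 170.8 and 169.7 in IP. Replicates differed by less than 1 FPKM in input and by little more in IP, and IP was 1.91-fold higher in both pairs. The log2 change was 0.93 (SE 0.04, adjusted p = 2.7e-05). Relative to Meg3 in the same library, Peg13 stood at 0.266 and 0.292 in input and at 8.36 and 6.55 in IP. Scaling all genes of a library by the same factor cannot change these ratios, whereas quantile normalization can.

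Trappc9 lies on the same strand as Peg13, so intronic reads of its unspliced RNA would count toward Peg13. Its input values were 24.0 and 25.8 FPKM and its IP values 34.8 and 35.0, a log2 change of 0.47 (adjusted p = 0.000583) that was 0.14 (adjusted p = 0.0708) after rescaling to equal sums. The change of Peg13 was the larger by value, and the difference between these genes was not tested. Kcnk9, a potassium channel gene of the same imprinted cluster, fell from 9.38 and 11.7 to 2.77 and 2.40 (-1.68). Chrac1 rose (0.65) and Ago2 fell (-0.42).

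Rmst and Kcnq1ot1 were below the filter in all 4 libraries and are not among the 7 tested. Rmst, a partner of the factor SOX2 in neuron formation, lies at chr10:92081746-92165178 on the minus strand. Input gave 0.486 and 0.523 FPKM and IP 0.328 and 0.197, so its groups did not overlap, and the ratio of means was 1.92. The deposited limits of input replicate 1 (0.294 to 0.677) overlapped those of IP replicate 1 (0.181 to 0.475) and IP replicate 2 (0.0698 to 0.324). Those of input replicate 2 (0.329 to 0.717) overlapped those of IP replicate 1 only. Without the filter, where 28.9% of 18026 genes were lower in IP, Rmst passed with a log2 change of -0.25 (adjusted p = 0.0341), but with a pseudocount of 0.01 in place of 1 it did not (-0.96, adjusted p = 0.081).

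Kcnq1ot1 is an unspliced RNA of 83437 bases at chr7:143213111-143296547 on the minus strand. It runs antisense to Kcnq1 and silences neighbours such as Cdkn1c, a brake on the cell cycle, on the paternal chromosome. Input gave 0.148 and 0.139 FPKM, and IP gave 0.0258 and 0.0492. Low as these are, the deposited limits are narrow over such a length and did not meet, with 0.121 as the lowest limit in input and 0.0602 as the highest in IP. The ratio of means was 3.83 (5.71 and 2.83 in the pairs). It passed without the filter (-0.14, adjusted p = 0.0213) and with the pseudocount of 0.01 as well (-1.74, adjusted p = 0.0388). Kcnq1 itself was listed at 0 in all libraries, and Cdkn1c fell by 1.11 on the log2 scale.

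Ordered by level per length, the members ran in input from Meg3 through Rian, Peg13, Miat, Malat1, Neat1, Mirg and Rmst to Kcnq1ot1. In IP they ran from Peg13 through Rian, Meg3, Malat1, Miat, Neat1, Mirg and Rmst to Kcnq1ot1. In each group only the neighbours Miat and Malat1 overlapped. Peg13 thus moved from the third place to the first, and Meg3 from the first to the third.

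All members are classed as long non-coding RNA (lncRNA) by RefSeq, and the 294 tested lncRNA genes as a class give a second background. Of these, 44.6% were lower in IP and 21.1% higher, with a median of -0.17. Among 11981 protein-coding genes 33.7% were lower and 37.4% higher, with a median of 0.03. A log2 change of -1 or lower was seen in 15.6% of lncRNAs and in 7.72% of protein-coding genes. Without the members the lncRNA figures were 43.6%, 21.3%, -0.17 and 13.9%. Counted from the lowest change among the 294 on the log2(FPKM + 1) scale, which holds low genes back, Meg3 was in place 1, Miat 4, Malat1 5, Neat1 8, Rian 15, Mirg 21 and Peg13 283. On this scale 6 members were therefore among the lowest of the class, and Peg13 was near its top.

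**Figure D3:**
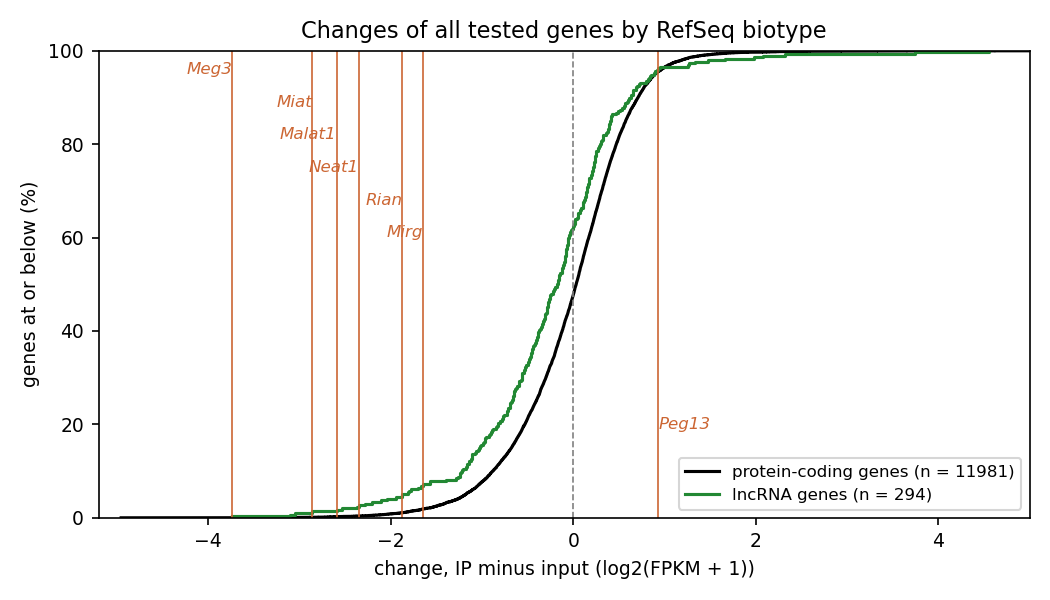
Cumulative share of tested genes at or below each log2 change, IP minus input, for 11981 protein-coding genes (black) and 294 lncRNA genes (green), with vertical lines at the 7 tested members. The green curve lies above the black over the lower changes, with 15.6% against 7.72% at -1 or lower, and 6 members lie in the lower tail while Peg13 lies near the top.

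Other lncRNA genes went both ways. Of 51 listed by name, 31 were in the files and 19 were tested, with 6 lower, 6 higher and a median of -0.07. After rescaling each library to the same sum the split was 10 lower and 3 higher, beside 53.9% lower and 17.9% higher of all tested genes. The most abundant, 2900097C17Rik, went from 403.5 and 398.0 FPKM to 227.8 and 235.3 (-0.79), and 1700020I14Rik from a mean of 45.1 to one of 14.6 (-1.56). Dlx1as, antisense to a gene of GABAergic neurons, rose from 9.28 and 8.81 to 58.8 and 63.3 (2.63). Dlx6os1, picked after its values were seen, rose too (1.66). 6330403K07Rik rose by 0.61, and RefSeq now classes it as protein-coding. Firre (-2.37) and Ftx (-2.28), nuclear RNAs of the X chromosome picked after their values were seen, fell about as far as Neat1.

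Genes that host small nucleolar RNAs were mostly lower: 8 of 14 fell, 1 rose, and the median was -0.60. After rescaling to equal sums 11 fell and none rose, beside 53.9% lower and 17.9% higher of all tested genes. Snhg11 went from 308.1 and 261.4 FPKM to 29.0 and 35.4, a log2 change of -3.11. The next hosts by level did not pass in the main fit: Snhg12 had a change of -0.21 (adjusted p = 0.21), Snhg6 one of -0.28 (adjusted p = 0.0584) and Snhg3 one of 0.13 (adjusted p = 0.642). After rescaling to equal sums Snhg12 (-0.55, adjusted p = 0.0148) and Snhg6 (-0.62, adjusted p = 0.00364) passed, while Snhg3 was at -0.20 and did not. Snhg12 and Snhg6 also passed after quantile normalization (adjusted p = 0.0377 and 0.0119), and Snhg6 with the replicate block (adjusted p = 0.0183). Gas5, picked after its values were seen, changed by -1.67. Rian is a host of the same kind, with its change of -1.87.

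Imprinted protein-coding genes did not share the fall: 12 of 31 tested were lower, 13 higher, and the median was -0.05. After rescaling to equal sums 15 were lower and 8 higher, beside 53.9% lower and 17.9% higher of all tested genes. Igf2 fell to 1.35 and 1.92 from 22.7 and 25.9 (-3.27). Snrpn rose from 459.8 and 454.3 to 1063 and 1047 (1.21), and Ndn rose by 0.88. Gnas rose by 0.72, a call lost after quantile normalization (0.06, adjusted p = 0.371). Peg13, at 0.93, lay by value among the imprinted genes that rose, and Meg3 lay below all 31 on that scale, although the ratio of input to IP was 14.8 for Igf2 and 13.8 for Meg3.

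**Figure D4:**
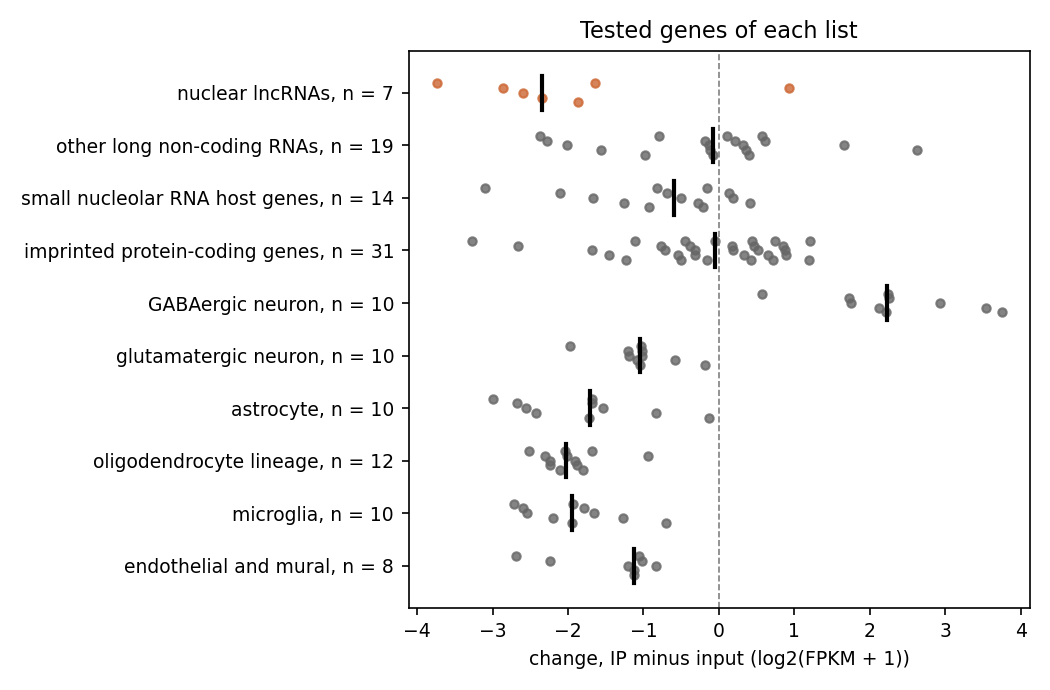
Log2 change, IP minus input, of each tested gene (points) of the members, of 3 comparison lists and of 6 cell type marker lists, with a black bar at each list's median. The members' median of -2.35 lies beside those of the oligodendrocyte (-2.02) and microglia (-1.94) markers, and GABAergic markers lie highest at 2.23.

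Genes of proteins that bind or hold such RNAs were mixed. Of 23 tested genes for paraspeckle, speckle and lncRNA-binding proteins, 9 fell and 6 rose, with a median of 0.01. With libraries rescaled to equal sums 20 fell and none rose. Of all tested genes, 53.9% were lower and 17.9% higher after that rescaling. Of 11 tested genes for retention and export of RNA, 5 fell and 3 rose, with a median of -0.22, and 8 fell and 2 rose after the rescaling. Among them Ddx39b, a helicase of mRNA export, fell by 0.31, Pabpn1, which binds poly(A) tails in the nucleus, fell by 0.36, and Adar, which edits RNA, rose by 0.54. Of 16 tested genes beside or over the members, 9 fell and 3 rose, with a median of -0.46, and 12 fell and 2 rose after the rescaling.

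By pattern over the 4 libraries, the genes nearest to Meg3 and to Malat1 were protein-coding. The measure of likeness was the root mean square difference of log2(FPKM + 1) values centred on each gene. Nearest was Mbd6 (0.181), with 10.5 and 9.54 FPKM in input and listed at 0 in both IP libraries. Its likeness holds near a pseudocount of 1 only: its change was -3.46 there but -6.66 at 0.1 and -1.59 at 5, while that of Meg3 was -3.74, -3.79 and -3.53. It was followed by Ptgds (0.187), a prostaglandin synthase of the meninges and glia. Ptgds went from 795.6 and 971.7 FPKM to 59.0 and 87.7. Then came the globin genes Hba-a1 (0.243) and Hbb-b1 (0.264) and, between them, Igf2 (0.261). Nearest to Malat1 were Slc1a3 (0.164), Mfge8 (0.189), Fam107a (0.190), Ppap2b (0.192) and Gja1 (0.195). Slc1a3, the glutamate transporter of astrocytes, fell to 5.47 and 8.04 FPKM from 45.6 and 50.6, and like Malat1 was higher in IP replicate 2. With 2 libraries per group these likenesses rest mostly on the size of the change.

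As goes with their choice as non-coding RNAs, the members' transcripts have short reading frames. The longest reading frame from an ATG took 2.75% of the length of Malat1, 0.899% of Kcnq1ot1, 6.73% of Peg13, 6.95% of Rian and 13.4% of Mirg. In Meg3 the longest frame took 4.86% of a transcript of 11473 bases, but 20.1% of one of 1913 bases. The median of 11970 protein-coding genes was 49.8%, and that of 286 other lncRNA genes 13.2%. In codons the longest frame was 64 in Malat1, 58 in Mirg, 106 in Peg13 and 83 in Rian, and it reached 186 in Meg3, 179 in Miat and 250 in Kcnq1ot1, against medians of 457 for protein-coding and 75 for other lncRNA genes. By this measure Peg13 lay within the range of the other members. A single exon makes up Malat1, Neat1, Kcnq1ot1 and Peg13, as it does in 2.43% of protein-coding and 17.5% of other lncRNA genes.

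The 3′ ends of the RefSeq transcripts of the 7 tested members show whether a signal for a poly(A) tail is written there. For Malat1 this end lies beyond the cut that makes the mature RNA. The signal AATAAA or ATTAAA was found in the last 40 bases of 78.7% of protein-coding and 75.2% of other lncRNA genes. The ends are printed 5′ to 3′ with the signal in capitals (RefSeq, GRCm38.p6). They lie at chr12:109568562-109568651 for Meg3, chr12:109661677-109661716 for Rian and chr12:109749419-109749458 for Mirg, on the plus strand. On the minus strand are chr5:112213228-112213267 for Miat, chr19:5795690-5795729 for Malat1, chr19:5842296-5842335 for the short Neat1 and chr15:72805602-72805641 for Peg13.
Meg3: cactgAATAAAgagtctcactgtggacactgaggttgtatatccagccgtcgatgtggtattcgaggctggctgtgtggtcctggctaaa
Rian: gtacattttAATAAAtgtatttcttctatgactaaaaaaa
Mirg: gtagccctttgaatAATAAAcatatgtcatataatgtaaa
Miat: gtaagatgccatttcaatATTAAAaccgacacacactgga
Malat1: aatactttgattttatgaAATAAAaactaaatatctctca
Neat1: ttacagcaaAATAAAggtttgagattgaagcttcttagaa
Peg13: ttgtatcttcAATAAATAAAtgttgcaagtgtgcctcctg
The signal was in the last 40 bases of each printed end but that of the long Meg3 transcript, where it lay farther from the end. A shorter Meg3 transcript of 1913 bases, whose end is not printed, had the signal in its last 40 bases. The long Neat1 transcript, whose end is not printed either, lacked the signal in its last 40 bases. Peg13 has overlapping copies of the signal. How these ends bear on the capture of each RNA was not tested.

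The 7 tested members kept their calls under each of the 4 other scalings tried. Rescaling each library to the same sum moved the median change of all genes from 0.03 to -0.29 and the split of calls to 53.9% lower and 17.9% higher. Relative to the median of all genes, the change was -3.76 for Meg3 as deposited and -3.82 after that rescaling, -2.89 and -2.99 for Miat, -2.62 and -2.71 for Malat1, -2.38 and -2.56 for Neat1, -1.90 and -1.94 for Rian, -1.67 and -2.01 for Mirg, and 0.90 and 0.89 for Peg13.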

How the data were processed

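RNA was sequenced as 100 bp single-end reads from TruSeq RNA libraries, per the labels' protocols and the series' design text. The deposited values are FPKM with confidence limits, made by the authors with TopHat and Cufflinks on mm10 with a UCSC annotation from iGenomes (per the series' design text, which gives no versions). Scaling between libraries, strand and RNA selection were not given in the sources used here, and the FPKM values give no read depth. Groups and numbers were taken from the titles (the source description of IP replicate 2 says replicate 1). Each library held 24490 entries. The 8 with a failed status and 1288 with small RNA names were left out, and of several entries for a symbol the highest stayed.

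A gene entered the test if 2 or more libraries had it at FPKM of 1 or above. Values were taken as log2(FPKM + 1), which understates changes of low genes. The fit used limma 3.58.1 under R 4.3.3 (lmFit, then eBayes with its mean-variance trend), IP minus input, two-sided, with Benjamini-Hochberg adjustment over all tested genes and a threshold of 0.05. Fold values are ratios of mean FPKM. The script was tested on simulated data. An exact permutation test of 2 against 2 cannot give a p below 0.333 and was not used. Each IP was made with its own input, per the design text, so equal numbers were taken as pairs; deviations of IP and input replicate 1 from their group means correlated at 0.16. P-values rest on the spread between libraries of a group, each from a pool of 3 mice, which eBayes draws toward the trend over all tested genes. Differences between pools and differences in the making of the libraries are not separated in that spread. The main fit has no block; alternatives are in the closing section. Biotypes, transcripts and sequences came from RefSeq on GRCm38.p6, with a biotype for 12372 tested genes (99.63%), 646 of them through a synonym. Named were the members, Npy and Gad1, up to 4 of the most abundant genes of each list, tested neighbours, and the 5 genes nearest to Meg3 and to Malat1 with mean FPKM of at least 5, without predicted genes; other names are marked as picked after their values were seen. Members and lists were chosen with earlier results of these data known.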

Additional observations from a re-analysis of the deposited data

How the results depend on the processing

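Under 18 alternatives every value of the 7 tested members kept its direction and its call. The counts of 6 lower and 1 higher did not change except through the filter, with 5 lower at a filter of FPKM 5, 8 without a filter, and 7 without one at a pseudocount of 0.01. Rmst lost its call there, as given above. The log2 change ranged from -4.12 to -3.53 for Meg3, -3.29 to -2.40 for Miat, -3.01 to -2.17 for Malat1, -2.86 to -1.64 for Neat1, -2.23 to -1.75 for Rian, -2.34 to -0.80 for Mirg (not tested with the filter at 5) and 0.53 to 0.99 for Peg13. With the replicate block, which pairs each IP with its input, 4368 genes were lower and 4745 higher, and the members' calls were the same. A filter at FPKM of 5 gave 2437 lower genes, since fewer were tested, and 3 other long non-coding RNAs higher. Rescaling to equal sums gave 6694 lower and 2227 higher genes, and the same without the members' share 6711 and 2216; in each, 10 other long non-coding RNAs were lower and 3 higher. With no filter and a pseudocount of 0.01, chosen after seeing the data, 10 were lower. Leaving out 1 library gave 3335 to 4023 lower and 3761 to 4236 higher genes. Sf1 turned to -0.33 in both rescalings and to -0.29 after quantile normalization, and ranged from -0.024 to 0.046 with 1 library left out. Begain turned to 0.0082 with median-of-ratios factors and ranged from -0.12 to 0.023 with 1 library left out. Snhg3 turned to -0.20 in both rescalings and ranged from -0.18 to 0.44 with 1 library left out, and Snhg12 from -0.43 to 0.0041. The cause of these turns was not tested. Over all alternatives of the 51 genes named, 6 values lost a call, 15 gained one, and 12 changed sign, some of them with a call. Mirg, Rmst and Kcnq1ot1 are the values that low FPKM limits most.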
